A study of Mus musculus with 6 samples.

Results

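The splicing factor genes described here are the rows of an H3K9ac peak table whose gene symbol begins with Srsf and a digit, Hnrnp, Sf3a or Sf3b, Snrp, or Prpf and a digit. They are 70 of the 17901 peaks in the table and carry the names of 57 of its 11191 genes. H3K9ac, acetylation of lysine 9 on histone H3, marks active promoters and enhancers. It was profiled by CUT&RUN, in which a nuclease releases the DNA beneath an antibody-bound mark, in lung endothelial cells isolated from mice. The 3 WT libraries came from Cre-negative mice and the 3 CSE-KO libraries from Cre-positive mice. CSE is cystathionine gamma-lyase, the enzyme that makes cysteine from cystathionine. The labels do not give the promoter driving Cre, the targeted allele, the strain, the sex or the age, or say if each library was made from its own animals. All p-values below rest on the variation among 3 libraries per group, part of which could be technical. No peak of the table bears the name of Cth, the CSE gene, so the genotype could not be checked in these data.

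The spliceosome removes introns from pre-mRNA. It assembles from small nuclear ribonucleoproteins (snRNPs), most of which are an RNA bound by a ring of Sm proteins and by further proteins particular to that snRNP. The Snrp genes encode Sm proteins and some of the particular ones. The SF3A and SF3B complexes belong to the U2 snRNP, which recognises the branch point of the intron. Prpf genes encode factors of the tri-snRNP and of the catalytic spliceosome. SR proteins (Srsf genes) bind exons and mostly favour their inclusion, whereas heterogeneous nuclear ribonucleoproteins (Hnrnp genes) coat nascent RNA and often oppose inclusion. These genes are active in nearly all dividing and resting cell types, and their promoters are mostly rich in CpG.

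Most of the peaks lay at promoters (coordinates throughout are on GRCm38). A promoter peak is one annotated as promoter or with its centre within 1 kb of the nearest transcription start, and 52 of the 70 peaks (74.3%) met this, against 44.8% of all 17901 peaks. After a filter on low counts 67 peaks were tested, and 49 genes had a tested promoter peak. Where a gene had several, the peak with the highest mean count stands for it. These 49 peaks are made up of 9 Srsf, 15 Hnrnp, 8 Sf3, 8 Snrp and 9 Prpf genes. The 3 untested peaks were 1 each of Snrpd3 (299 bp, in intron 3), Snrpn (303 bp, in an intron), an imprinted gene for an Sm protein, and Prpf40b (277 bp, promoter), all of low counts.

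These 3 stretches of promoter sequence show where the mark lay: the gene whose promoter peak had the smallest p among negative fitted changes (Srsf7), the one with the smallest p among positive fitted changes (Snrpc), and the one with the highest WT level per kilobase (Prpf4). They are RefSeq sequences on GRCm38.p6, 5′ to 3′ on the strand of the gene, and hold only the bases upstream of the start that no RefSeq gene covers. Capitals mark GGGCGG, the GC box bound by SP and KLF factors, on either strand, and no other searched motif occurred in them.
Srsf7 (chr17:80207370-80207503, minus strand, positions -198 to -65 from the start): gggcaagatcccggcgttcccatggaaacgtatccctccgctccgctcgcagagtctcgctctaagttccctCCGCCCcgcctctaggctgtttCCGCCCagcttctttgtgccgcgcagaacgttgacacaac
Snrpc (chr17:27839837-27840027, plus strand, positions -250 to -60): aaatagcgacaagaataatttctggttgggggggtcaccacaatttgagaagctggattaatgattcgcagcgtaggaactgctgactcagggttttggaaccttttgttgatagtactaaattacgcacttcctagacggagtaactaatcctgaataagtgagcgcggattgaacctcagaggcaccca
Prpf4 (chr4:62408626-62408761, plus strand, positions -157 to -22): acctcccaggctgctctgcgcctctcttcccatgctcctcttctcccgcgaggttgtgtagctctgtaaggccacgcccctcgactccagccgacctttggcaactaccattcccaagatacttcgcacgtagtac
The 134 bases of Srsf7 are the whole gap between Srsf7 and Gemin6, a gene of the complex that assembles snRNPs, which is transcribed away from it, and hold 13 CG dinucleotides and 2 GC boxes. The 136 bases of Prpf4 are the whole gap to Cdc26, a subunit gene of the anaphase-promoting complex, and hold 8 CG dinucleotides. The 191 bases of Snrpc hold 7.

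All 3 stretches lay inside the peak of their gene, and at the 2 pairs the mark between the genes cannot be assigned to one of them. In the RefSeq promoter table, 13 of the 43 member promoter peaks whose gene has an entry covered starts of 2 or more genes on opposite strands (30.2%), against 15.1% of 6128 promoter peaks of all genes with an entry. Partners included Cdc26 at Prpf4, Lrrc40 at Srsf11, Mfsd11 at Srsf2, Cog4 at Sf3b3, Gla at Hnrnph2 and Rmi1 at Hnrnpk. Srsf7 is not in this count, because the promoter table places no Gemin6 start in its peak. Member promoter peaks were also wider (median 1416 against 1095 bp) and more often covered their own start (86% against 72.7%). The part of width and position in the difference from all genes was not tested.

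Other starts of the families lay in peaks that carry a neighbour's name. RefSeq lists 66 protein-coding genes with symbols of this pattern, and 9 of them name no row. The starts of 4 of these 9, Hnrnpa1, Prpf31, Prpf38a and Sf3a2, lay in peaks named Gm5643, Tfpt, Orc1 and Plekhj1. The starts of Hnrnpa3, Snrpd3 and Snrpf, which do name rows elsewhere, lay in peaks named Gm6793, Gucd1 and 4933408J17Rik. These 7 peaks are not members by the rule. Their log2 fold changes (CSE-KO over WT) lay between -0.27 (SE 0.16, Hnrnpa3 start) and 0.12 (SE 0.18, Snrpd3 start), and the smallest edgeR adjusted p was 0.78. At the peak over the Prpf38a start every CSE-KO library lay below every WT library, as at 6.90% of all tested peaks. WT had 137 ± 6.55 and CSE-KO 120 ± 10.6 CPM (mean ± SD of 3 libraries). The log2 fold change there was -0.19 (SE 0.18, edgeR adjusted p = 0.87).

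Motifs were searched on both strands of the RefSeq windows from 250 bases before to 50 after a start. They were the ETS core CCGGAA, the GC box GGGCGG, the NF-Y box CCAAT, the TATA box TATAAA, the E-box CACGTG, the YY1 motif AAGATGG and the NRF1 core GCATGCG. Of 49 windows of 39 member genes whose start lay in the gene's own peak, 46.9% held CCGGAA. The share was 35.4% of 6585 windows with a start in a comparison peak and 14.9% of all 32851 windows. Comparison peaks were all promoter peaks and any other peak that covered a start of the gene it is named for. The member set likewise holds Hnrnpu and Srsf1, whose peaks did not count as promoter. GGGCGG was in 71.4%, 68.6% and 35.7% of the same sets, CCAAT in 42.9%, 39.0% and 37.4%, and TATAAA in 10.2%, 5.51% and 13.6%. CACGTG was in 14.3%, 10.9% and 7.15%, AAGATGG in 6.12%, 8.44% and 6.34%, and GCATGCG in 8.16%, 7.78% and 3.58%. The median number of CG dinucleotides per window was 26 in the member set, 23 over starts in the comparison peaks and 7 over all windows. The whole windows of Srsf7, Snrpc and Prpf4 each held CCGGAA, and that of Srsf7 also the GC box and the NRF1 core. A match describes letters in a window, not a bound site, and overlapping windows of one gene share bases.

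The member promoter peaks were broad. Their median width was 1416 bp (485 to 2848 bp), against 1095 bp over 7638 genes with a tested promoter peak. By the deposited distance, 41 of 49 spanned the nearest start and 8 began downstream of it. Those 8 belonged to Hnrnpm, Hnrnpa2b1, Snrpd1, Snrpb2, Prpf39, Prpf19, Prpf6 and Prpf18. The centre lay downstream of the start in 38 of 49 (77.6%), close to the 82.5% over all genes, with a median of 275 bp (all genes, 282 bp). The widest, at Hnrnpk (chr 13, 58400633 to 58403480), a poly(C)-binding hnRNP, was centred 61 bp from the start, whereas that of Snrpb (chr 2, 130177223 to 130179764), the gene of the Sm B proteins, was centred 871 bp downstream in intron 1.

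**Figure D1:**
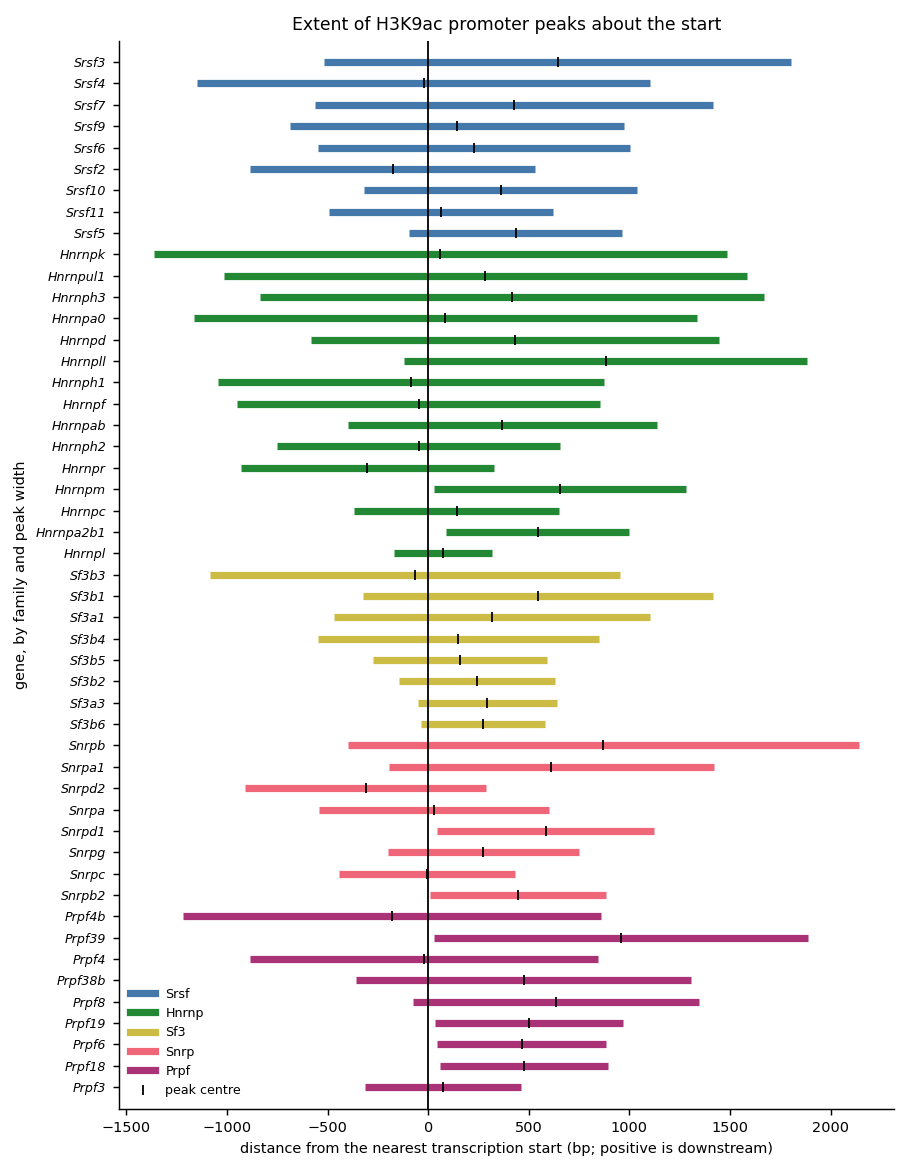
Each bar spans 1 promoter peak of a splicing factor gene in base pairs from the nearest transcription start (positive is downstream), coloured by family, with a tick at the peak centre. Of the 49 peaks, 41 cross the start and 38 have their centre downstream of it.

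Depth differed between the groups. Total counts over the peaks ran from 313610 (replicate 2) to 676056 in WT and from 679938 to 1173016 in CSE-KO, with no overlap, and the part of depth in the results was not tested beyond leaving out libraries. The endothelial label was checked on 18 marker genes. All 18 had a peak. A tested promoter peak was present at 10, Cdh5, Pecam1, Tie1 and Tek among them, but not at Kdr, Flt1, Erg or Cldn5. The summed levels of the 10 were 1596 to 1852 CPM in WT and 1507 to 1693 in CSE-KO. By edgeR 0 of the 10 were called, and 30.0% had an unadjusted p under 0.05, against 5.49% of all promoters. These were Cdh5 (log2 fold change -0.38, SE 0.15), Ets1 (-0.39, SE 0.16) and Tie1 (0.70, SE 0.29). Of 10 leukocyte, 9 epithelial and 9 mesenchymal markers, 1, 4 and 1 had any row, and none a tested promoter peak.

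Levels of the member promoters were mostly above the middle of all promoters. A level is given in CPM (counts scaled to a common total over the peaks, with TMM factors) per kilobase of peak, so that genes can be compared. In WT the median was 74.0 CPM per kb over the 49 members and 60.5 over all 7638 genes. Of the members, 38 of 49 lay above the median of all genes, 12 in the top 10% and 0 in the lowest 10%. This is a description of the list, without a test. Ranks below are by WT mean, and the libraries of genes at neighbouring ranks can overlap.

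Among SR proteins, Srsf3, a small SR protein that also regulates its own mRNA, and Srsf11 had the highest promoter levels. Srsf3 (chr 17, 29032144 to 29034462, intron 1) had 104, 110 and 102 CPM per kb in the WT libraries (here and below in the order of replicates 1 to 3) and 116, 123 and 86.8 in the CSE-KO libraries. Srsf11 (chr 3, 158036021 to 158037129, promoter, shared with Lrrc40) had 102, 99.1 and 110 in WT and 110, 121 and 94.0 in CSE-KO. The groups overlapped at both, and the WT ranges of the 2 genes overlapped too. The lowest level of the family was that of Srsf9, with a WT mean of 45.8 CPM per kb.

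Among hnRNP genes, Hnrnpf, which binds G-rich RNA, led with 145, 113 and 138 CPM per kb in WT and 112, 108 and 119 in CSE-KO (chr 6, 117906852 to 117908660). A second Hnrnpf peak lay about the start of other transcripts (chr 6, 117916529 to 117918437), with WT and CSE-KO means of 154 and 135 CPM and a log2 fold change of -0.19 (SE 0.18). The short promoter peak of Hnrnpl (485 bp, chr 7, 28810722 to 28811206), a regulator that binds CA-rich RNA, had 138, 113 and 78.0 CPM per kb in WT and 105, 130 and 29.9 in CSE-KO. CSE-KO replicate 3 stood below the other libraries there. The lowest of the family was Hnrnph2, on chromosome X, with a WT mean of 48.1 CPM per kb.

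In the U2 complexes, Sf3b1, the core SF3B subunit mutated in myeloid neoplasms, and Sf3b3 were the highest. Sf3b1 (chr 1, 55026061 to 55027803, intron 1, in a CpG island) had 76.6, 117 and 90.6 CPM per kb in WT and 87.4, 102 and 84.8 in CSE-KO. Sf3b3 (chr 8, 110845848 to 110847886, promoter) had 95.3, 82.4 and 68.6 in WT and 104, 87.5 and 98.0 in CSE-KO. The libraries of the 2 groups overlapped at both genes. Sf3b2 was close behind Sf3b3, with WT means of 81.05 and 82.09 CPM per kb and overlapping WT ranges.

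Of the snRNP protein genes, Snrpd1, an Sm ring protein, and Snrpa, the U1 protein that binds a stem-loop of U1 RNA, were the highest. Snrpa (chr 7, 27195158 to 27196305) had 90.4, 95.7 and 102 CPM per kb in WT and 83.3, 99.3 and 73.2 in CSE-KO, a log2 fold change of -0.17 (SE 0.20). Snrpc, a U1 protein that helps to recognise the 5′ splice site, was the lowest of all 49 members in WT, with a mean of 43.4 CPM per kb.

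Prpf4, a tri-snRNP protein, had the highest level of the members, 155, 118 and 146 CPM per kb in WT and 145, 151 and 132 in CSE-KO (chr 4, 62407899 to 62409626), higher than 98.9% of all promoters in its WT mean. Hnrnpf, next in order, had a WT range that overlapped it. Prpf38b followed in the Prpf family with 64.2, 69.9 and 101 CPM per kb in WT and 79.3, 107 and 89.6 in CSE-KO (chr 3, 108910424 to 108912087, exon 1). Its groups overlapped, with a log2 fold change of 0.21 (SE 0.19) that lay between 0.046 (without WT replicate 1) and 0.46 (without WT replicate 3). Prpf18 was close behind Prpf38b, with WT means of 77.7 and 78.3 CPM per kb and overlapping WT ranges. Prpf8, the protein at the catalytic centre of the spliceosome, had a WT mean of 69.7 CPM per kb.

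**Figure D2:**
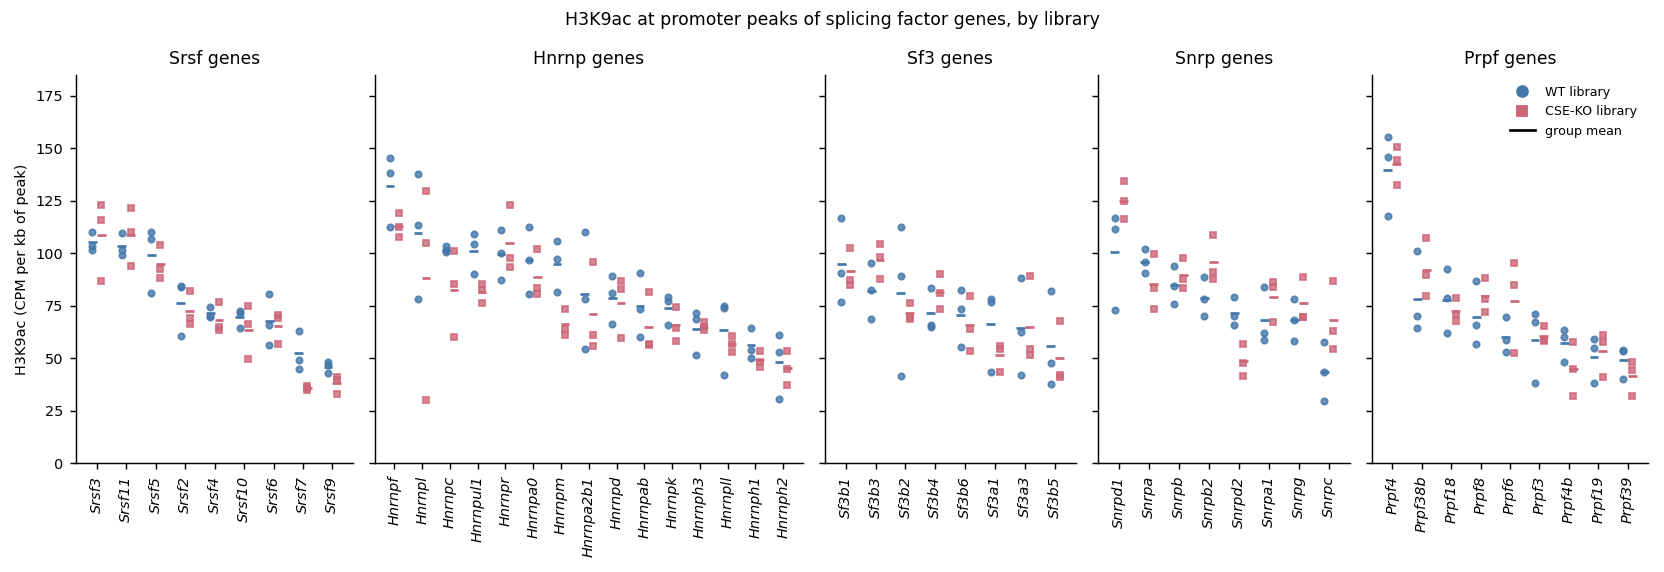
H3K9ac in CPM per kb of peak at the 49 promoter peaks, in 5 family panels ordered by WT mean; circles are WT libraries, squares CSE-KO libraries, and short lines group means. Prpf4 and Hnrnpf have the highest WT means, 139.6 and 132.0. The groups do not overlap at 5 of the 49 genes (10.2%, against 11.8% of all genes with a tested promoter peak).

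No splicing factor peak passed the test between CSE-KO and WT cells. In bulk libraries, fewer marked cells and less of the mark per cell cannot be told apart. Of the 67 tested peaks 0 passed an adjusted p of 0.05 (edgeR quasi-likelihood test, Benjamini-Hochberg adjustment over 16134 peaks), where 0.0868% of all tested peaks passed (0.0248% higher and 0.0620% lower). The smallest adjusted p of a member was 0.62. At an unadjusted p under 0.05 there were 5 member peaks, 1 higher and 4 lower in CSE-KO (7.46%), against 7.08% of all peaks (3.01% higher and 4.07% lower), and the Wald test of DESeq2 gave 3 (4.48%, against 3.51% of all peaks). WT and CSE-KO libraries were fully separated at 6 of 67 peaks (8.96%), all lower in CSE-KO, against 13.0% of all tested peaks, 6.09% higher and 6.90% lower. The fitted value was below 0 at 42 of 67 (62.7%), against 50.1% of all peaks. Among the 49 promoters 0 passed (all genes, 0.0262%), 4 had an unadjusted p under 0.05, all lower (8.16%; all genes, 5.49% in all and 3.34% lower), and 5 were fully separated, all lower (10.2%; all genes, 11.8% in all and 6.76% lower).

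The intervals bound the size of change, relative to the other peaks, that could have been missed. Counts were scaled to the total over the peaks, so a gain or loss shared by all peaks would not show. The 95% confidence interval of the log2 fold change lay within a 2-fold change for 46 of the 49 promoters (93.9%; all genes, 79.6%) and within a 1.5-fold change for 22 (44.9%; all genes, 29.2%). The median SE was 0.20 at member promoters and 0.26 over all genes. The members' mean counts were higher (median 70.7 against 44.8 reads per library) and their WT coefficients of variation lower (median 16.3% against 20.7%), and the part of each was not tested. The fitted changes ran from -0.58 at Snrpd2 to 0.57 at Snrpc. Their median was -0.066 with 32 of 49 below 0 (65.3%), against -0.018 and 53.0% over all 7638 genes. With single libraries left out, 26 to 33 of the 49 were below 0.

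**Figure D3:**
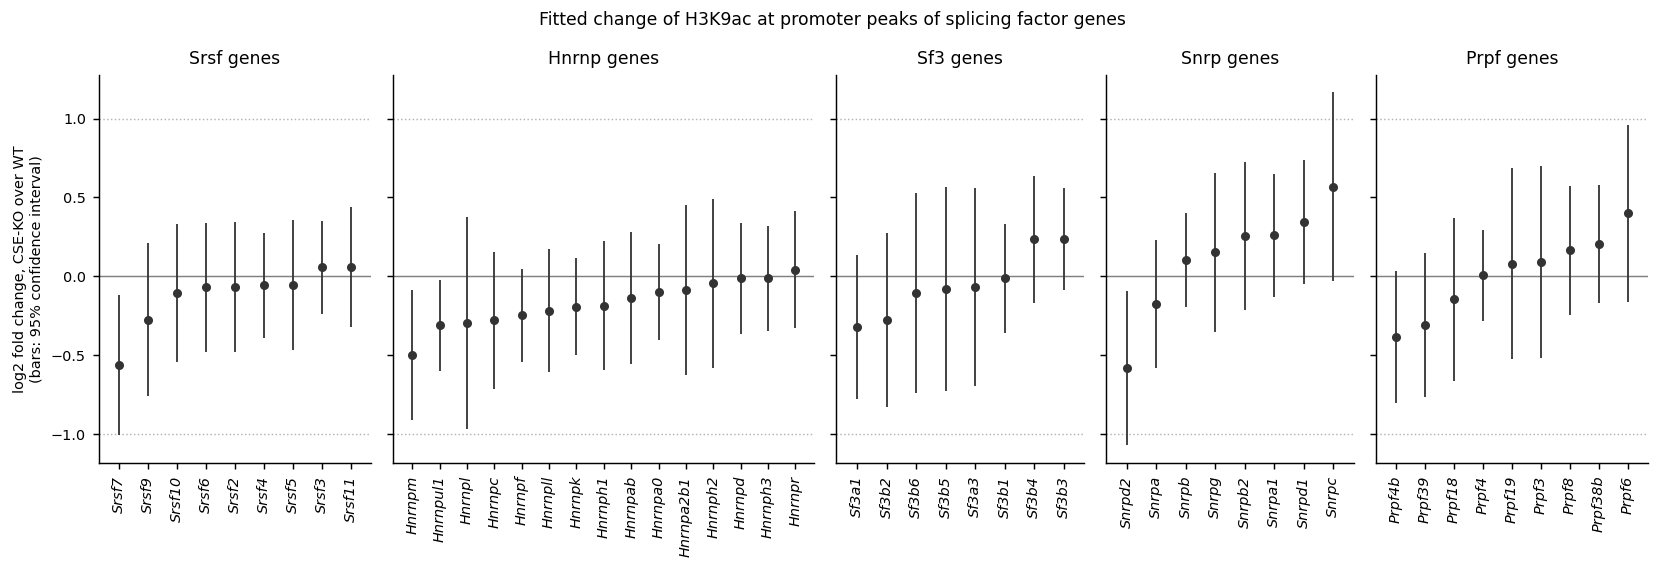
Fitted log2 fold change (CSE-KO over WT) at the 49 promoter peaks by family, with 95% confidence intervals; dotted lines mark a 2-fold change. Intervals of Srsf7, Snrpd2, Hnrnpm and Hnrnpul1 lie below 0, none lies above 0, and no gene passed the adjusted threshold.

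The families did not share one direction. Of 15 Hnrnp promoters, 14 had a fitted value below 0 (11 to 13 with single libraries left out), with a median of -0.19. Their summed level was 2162, 2168 and 2169 CPM in WT and 1996, 1892 and 1870 in CSE-KO, a mean of 2166 ± 3.79 against 1919 ± 67.6 (SD, n = 3 each). The sums of the groups did not overlap. An SD over 3 sums is itself uncertain, and WT replicate 2 had the fewest counts of all libraries (313610). Counting noise in the sums was not worked out, so the WT SD of 3.79 may understate the error. Of 8 Snrp promoters 2 were below 0 (median 0.20), with sums of 739, 847 and 820 CPM in WT and 855, 873 and 857 in CSE-KO. These sums did not overlap either, with means of 802 ± 56.3 and 862 ± 9.74 CPM (SD, n = 3 each). The gap was narrow, from 847 in WT replicate 2 to 855 in CSE-KO replicate 1. How often the sums of other gene sets separate was not worked out for either family. The sums overlapped for Srsf (1111 ± 24.9 and 1050 ± 49.0 CPM; 7 of 9 below 0), Sf3 (735 ± 52.5 and 735 ± 24.6; 6 of 8 below 0) and Prpf genes (889 ± 71.7 and 905 ± 70.7; 3 of 9 below 0). The members were chosen by name with earlier results known, so no p is given for a family, and the difference between families was not tested.

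Srsf7, an SR protein that also takes part in mRNA export, had the smallest p of all members. Its peak (chr 17, 80205888 to 80207867, centred 428 bp downstream in an intron, in a CpG island) had 125, 96.9 and 88.9 CPM in WT and 71.1, 68.7 and 72.4 in CSE-KO. Every CSE-KO library lay below every WT library, with WT replicate 1 the highest. The log2 fold change was -0.56 (SE 0.22, 95% interval -1.0 to -0.12, edgeR adjusted p = 0.62). With single libraries left out it lay between -0.68 and -0.38.

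Srsf9, which is the other SR gene whose groups did not overlap, had 80.1, 71.1 and 77.3 CPM in WT and 68.6, 65.8 and 55.0 in CSE-KO (chr 5, 115326490 to 115328152, exon 1). Its log2 fold change was -0.27 (SE 0.24, adjusted p = 0.86, edgeR). Srsf1, the best known SR protein and a regulator of exon inclusion, had a broad peak over its start that counted as non-promoter because its centre was 1106 bp away (chr 11, 88047363 to 88049595). It had 148, 191 and 176 CPM in WT and 129, 162 and 162 in CSE-KO, and the groups overlapped (log2 fold change -0.18, SE 0.17). The other Srsf promoters, of Srsf2, Srsf3, Srsf4, Srsf5, Srsf6, Srsf10 and Srsf11, lay between -0.10 and 0.06.

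Hnrnpm, which binds GU-rich RNA, had 102, 133 and 122 CPM in WT and 80.4, 92.1 and 76.8 in CSE-KO. Its peak (chr 17, 33684176 to 33685430) is centred 655 bp downstream of the Hnrnpm start, and the deposited annotation also puts it at the end of a noncoding transcript. The groups did not overlap, and the log2 fold change was -0.50 (SE 0.21, 95% interval -0.91 to -0.084, edgeR adjusted p = 0.64). Hnrnpul1, an hnRNP U-like protein with a role in DNA repair, had 271, 284 and 234 CPM in WT and 198, 222 and 214 in CSE-KO (chr 7, 25753175 to 25755775, exon 1). All CSE-KO libraries lay below WT there too; the fitted change was -0.31 on the log2 scale (SE 0.14, edgeR adjusted p = 0.68). Hnrnpf had -0.25 (SE 0.15), Hnrnpc, which binds uridine tracts, -0.28 (SE 0.22), and Hnrnpr, the single Hnrnp promoter above 0, 0.04 (SE 0.18).

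Hnrnpl, the CA-repeat binding protein, carried 3 peaks, and the fitted value was below 0 at each. Besides the promoter peak there was one centred at -1909 bp in a CpG island (chr 7, 28808202 to 28809760), with 122, 129 and 104 CPM in WT and 92.2, 90.6 and 94.1 in CSE-KO. The groups did not overlap at this peak (log2 fold change -0.34, SE 0.20, edgeR adjusted p = 0.77). The promoter peak had -0.30 (SE 0.33) and turned to 0.079 without CSE-KO replicate 3, the library that stood low there. The upstream peak centred at -8174 bp had -0.21 (SE 0.26).

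Snrpd2, an Sm ring protein, had the lowest fitted value of the promoters. Its peak (chr 7, 19148928 to 19150126) had 94.9, 84.0 and 79.0 CPM in WT and 49.9, 57.0 and 68.1 in CSE-KO. The groups did not overlap, with a log2 fold change of -0.58 (SE 0.24, 95% interval -1.07 to -0.093, edgeR adjusted p = 0.64). The other Sm ring genes with a promoter peak of their own, Snrpd1, Snrpg and Snrpb, had fitted values above 0. Snrpd1 had 78.6, 126 and 120 CPM in WT and 125, 145 and 135 in CSE-KO cells (0.35 on the log2 scale, SE 0.20), with WT replicate 1 the lowest library and overlap between the groups. Without that library the value was 0.13. Snrpg had 0.15 (SE 0.25) and Snrpb 0.11 (SE 0.15). Snrpf, also of the ring, had the lowest fitted value of all 67 tested peaks, at a peak of low counts centred at -6387 bp. It had 29.7, 22.6 and 18.1 CPM in WT and 19.5, 4.39 and 21.7 in CSE-KO, with overlap (chr 10, 93595909 to 93596182; -0.59, SE 0.48). The peak over its start, named after a neighbour, had -0.033 (SE 0.30).

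Snrpc, whose promoter stretch is printed above, had the highest fitted value of the promoters. Its peak (chr 17, 27839643 to 27840519) had 50.4, 25.8 and 37.8 CPM in WT and 55.0, 76.0 and 47.8 in CSE-KO. The groups overlapped, since WT replicate 1 exceeded CSE-KO replicate 3, and the log2 fold change was 0.57 (SE 0.30, 95% interval -0.031 to 1.17, edgeR adjusted p = 0.73). Without CSE-KO replicate 2 it was 0.38. The U2 proteins Snrpa1 and Snrpb2 had 0.26 (SE 0.19) and 0.25 (SE 0.23).

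**Figure D4:**
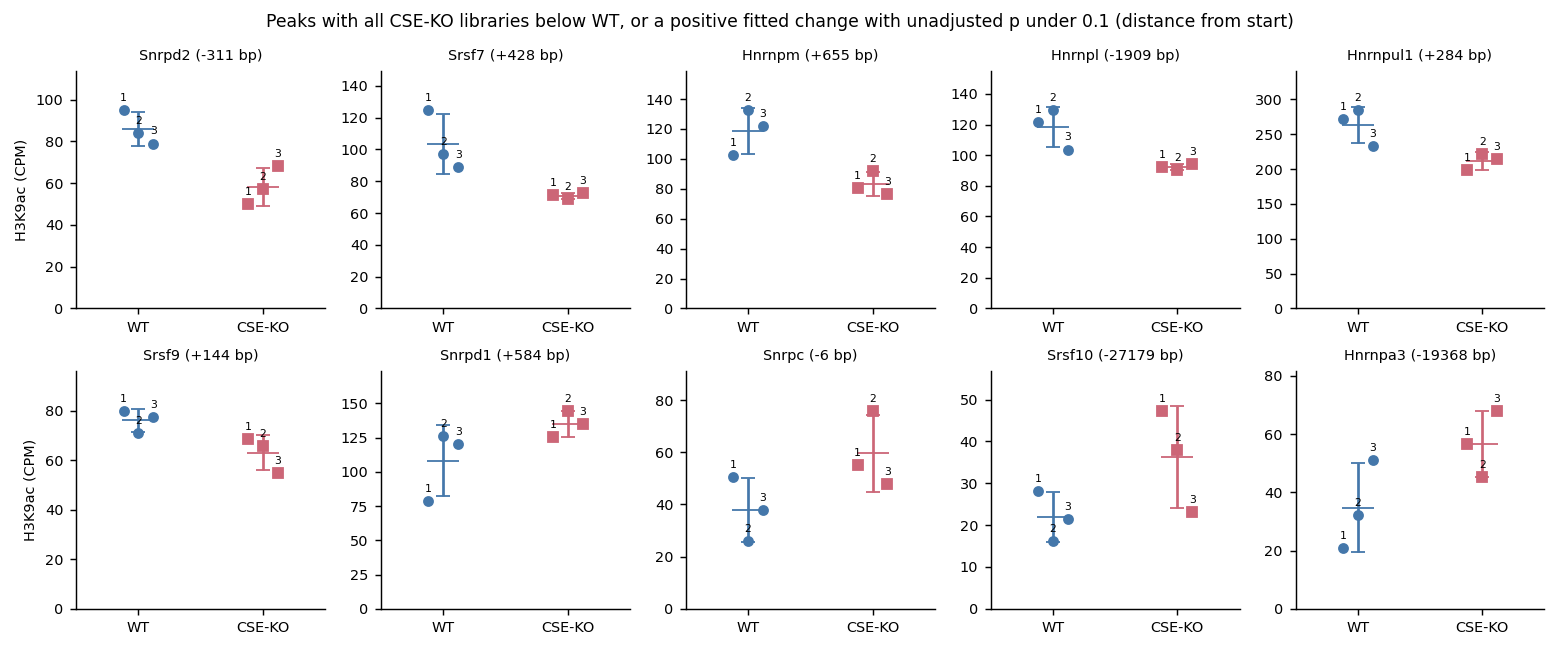
H3K9ac in CPM in each library (numbers are replicates) at the 10 member peaks whose CSE-KO libraries all lie below WT or whose fitted change is positive with an unadjusted p under 0.1; bars are means ± SD, n = 3, and each panel has its own axis from 0. The first 6 panels, Snrpd2 to Srsf9, were chosen for no overlap between groups (8.96% of tested member peaks). Of all tested peaks 6.90% were separated lower and 6.09% higher. The last 4 panels were chosen by p and have the higher CSE-KO means with overlap.

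No Sf3 or Prpf promoter had an unadjusted p under 0.05 (all genes, 5.49%), and all of their 95% intervals lay within a 2-fold change. Sf3a1, an SF3A subunit, had 68.2, 123 and 120 CPM in WT and 85.5, 87.7 and 68.1 in CSE-KO (chr 11, 4159888 to 4161455). Its WT replicate 1 lay among the CSE-KO libraries, and the log2 fold change was -0.32 (SE 0.23), with -0.58 without that library and -0.15 without WT replicate 3. Sf3b2 had -0.27 (SE 0.27), and Sf3b3 and Sf3b4, also SF3B subunits, had 0.24 (SE 0.16) and 0.23 (SE 0.20). Sf3b1 had -0.011 (SE 0.17), and the sign turned with library size alone (0.0086) but not with RLE factors (-0.013).

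Prpf4b, a kinase of the spliceosome, had 132, 100 and 125 CPM in WT and 93.1, 120 and 66.6 in CSE-KO (chr 13, 34874276 to 34876352; log2 fold change -0.38, SE 0.21, and -0.57 to -0.21 with single libraries left out). CSE-KO replicate 2 lay within the WT range. Prpf6, which bridges parts of the tri-snRNP, had 48.9, 58.2 and 44.4 CPM in WT and 71.1, 43.9 and 79.6 in CSE-KO (chr 2, 181601365 to 181602202; 0.40, SE 0.28, and 0.25 to 0.60 with single libraries left out). Its groups overlapped as well. Prpf39, a U1-associated factor, had -0.31 (SE 0.23). Prpf4, the highest of all, was at 0.0071 (SE 0.14, 95% interval -0.28 to 0.30).

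Of the 18 peaks that did not count as promoter, 16 were tested, and 9 of these were below 0 (median -0.068). Those of Hnrnpu, Hnrnpul2 and Srsf1, among the 5 with the highest counts, were centred just beyond 1 kb from a start. Hnrnpu, the gene of the RNA-binding scaffold protein SAF-A, had 222, 268 and 209 CPM in WT and 238, 216 and 236 in CSE-KO (chr 1, 178335339 to 178338148; 0.0054, SE 0.15). Hnrnpul2 had 178, 155 and 102 in WT and 131, 120 and 155 in CSE-KO (chr 19, 8819549 to 8821298; -0.10, SE 0.19). The groups overlapped at both. An intron peak of Prpf40b, 30360 bp from the nearest start, had 110, 29.1 and 92.2 CPM in WT and 66.0, 59.9 and 85.4 in CSE-KO (chr 15, 99333178 to 99334111), where WT replicate 2 stood low. Another Prpf40b peak, 14091 bp from the start, had 8.90, 25.9 and 19.8 CPM in WT and 25.4, 23.4 and 29.0 in CSE-KO (0.61, SE 0.45; 0.22 without WT replicate 1).

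The 4 intergenic peaks at -74002 to -16155 bp from the Hnrnpa3 start bear its name in the deposited annotation. The peak at -45978 bp covers the RefSeq start of another gene, Gm39853. One of the 4 lay at -19368 bp in an ERV1 long terminal repeat element (MMVL30-int, chr 2, 75639468 to 75640315). It was the single member peak with an unadjusted p under 0.05 and a positive fitted change. It had 20.8, 32.3 and 51.0 CPM in WT and 56.7, 45.3 and 68.1 in CSE-KO, with overlap between the groups (0.71 on the log2 scale, SE 0.32, edgeR adjusted p = 0.67). Without single libraries it lay between 0.38 and 1.18. How reads that map to several places were treated was not stated in the labels, so a level in a repeat is uncertain. The remaining Hnrnpa3 peaks had 0.15 to 0.35 (SE 0.39 to 0.41). A peak at -27179 bp from the Srsf10 start had 28.2, 16.2 and 21.4 CPM in WT and 47.4, 38.0 and 23.2 in CSE-KO (chr 4, 135828608 to 135829176; 0.69, SE 0.37, adjusted p = 0.74, edgeR), again with overlap. Whether these peaks act on the gene they are named for was not tested.

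Other genes of the splicing pathway showed no called promoter either. A list of 155 such genes, grouped by function, held 124 with a tested promoter peak, of which 0 were called by edgeR and 2 (1.61%) had an unadjusted p under 0.05, against 0.0262% and 5.49% of all promoters. The median log2 fold change was -0.019, with 65 of 124 (52.4%) below 0, against -0.018 and 53.0% over all genes. The 2 were Rbm39, an SR-like splicing regulator, at 199 ± 9.59 CPM in WT against 253 ± 20.2 in CSE-KO cells (SD over 3 libraries; 0.35 on the log2 scale, SE 0.15, edgeR adjusted p = 0.64), and Gemin7, a subunit of the SMN complex that loads the Sm ring, with 130 ± 45.0 and 89.8 ± 5.86 (-0.45, SE 0.21, edgeR adjusted p = 0.68). By function, and beside the same 53.0%, 9 of 10 promoters of U2AF and branch point factors lay below 0 (median -0.15), 9 of 24 of the genes named Snrnp and Lsm and their partners (0.085), 10 of 19 of PRP19 and catalytic step factors (-0.060), and 3 of 8 of exon junction and export factors (0.059). The SR-related proteins and kinases had 8 of 17 below 0 (0.0049), other regulators of alternative splicing 18 of 30 (-0.065), and snRNP assembly factors 8 of 16 (-0.017).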

How the data were processed

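H3K9ac CUT&RUN was analysed in 6 libraries, 3 WT and 3 CSE-KO, grouped by their labels. The authors deposited 1 table of raw read counts per peak; per the submitters' processing notes, STAR 2.7.11a and featureCounts were used along with Trimmomatic 0.39, Picard 3.1.1 and DESeq2 1.36.0. No source used here names the peak caller. The 12 deposited columns of normalized values per library were not used; their headers carry one prefix for WT and another for CSE-KO, of unstated meaning, which cannot be told apart from genotype. The notes name mm39, whereas the coordinates were matched to starts of the RefSeq tables on GRCm38.p6, the build used here. The test was the quasi-likelihood F test of edgeR 4.0.16 under R 4.3.3, on peaks kept by filterByExpr (minimum count 10) with TMM factors, with adjustment over all tested peaks and a threshold of 0.05. The 95% intervals come from the F statistic. The fit draws the variance of each peak toward that of the other tested peaks. Its p-values and intervals therefore do not rest on the 6 libraries of that peak alone. Levels are CPM after TMM, per kb where genes are compared. The test was checked on simulated data.

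The members and lists were chosen with earlier results of these data known. Named peaks were, in each family, up to 4 with the smallest p and up to 2 promoters with the highest WT level per kb, and up to 5 non-promoter peaks with the highest counts; further peaks named in the text, and the restriction of the printed sequences to promoter peaks and to bases outside genes, followed a look at the values. The results were recomputed with RLE factors, library size alone, DESeq2 1.42.0, voom (limma 3.58.1), all peaks kept, peaks of mean count 50 or above, a robust dispersion fit, a replicate block, reads summed per gene, and each library left out. Pairs of libraries within a group differed by more than sampling noise (ratio of chi-square to its degrees of freedom, 1.85 to 2.14).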

Additional observations from a re-analysis of the deposited data

How the results depend on the processing

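No splicing factor peak and no promoter of the other splicing genes was called under any alternative, and the smallest adjusted p of a member lay between 0.52 (without WT replicate 3) and 1.00 (DESeq2 Wald test). Member peaks with an unadjusted p under 0.05, 5 in all, became 8 without WT replicate 2, 1 without CSE-KO replicate 1 and 3 with DESeq2, where the shares were 11.9%, 1.49% and 4.48% of member peaks against 7.41%, 5.37% and 3.51% of all tested peaks. The 14 calls among all peaks became 7 with DESeq2, 8 with a mean count of 50 or more, which tests fewer peaks, and 7 to 13 with single libraries left out (7 without WT replicate 3, 8 without CSE-KO replicate 1, 9 without CSE-KO replicate 3). The median log2 fold change of the member promoters was -0.047 with library size alone, -0.029 at a mean count of 50 or more and -0.078 to -0.020 with single libraries left out (-0.020 without WT replicate 2, -0.042 without CSE-KO replicate 2, -0.031 without CSE-KO replicate 3); the cause was not tested. In each refit of single peaks the family medians kept their sign for Hnrnp (-0.26 to -0.11), Snrp (0.079 to 0.29) and Srsf (-0.13 to -0.029). Those of Sf3 and Prpf did not. The number of member promoters below 0, 32 of 49, became 29 with library size alone. It was 27 without WT replicate 1, and 26 without CSE-KO replicate 1 or without CSE-KO replicate 3. Library size alone moved the median of all promoters by less than 0.1. With a replicate block the member median was -0.067 and 15 peaks were called, none a member. Deviations of same-numbered libraries correlated at 0.008 to 0.064, and those of differently numbered libraries at -0.033 to 0.018. Such small values do not settle whether the numbers pair the libraries.

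Of 31 named peaks, 9 changed sign under some alternative, all with intervals across 0. Hnrnpu was -0.00098 without a filter, Prpf4 -0.010 with voom, and Sf3b1 0.0086 with library size alone, 0.021 with voom and 0.023 at a mean count of 50 or more. With single libraries left out, Hnrnpl (promoter) ranged from -0.60 to 0.079, Hnrnpu from -0.067 to 0.095, Hnrnpul2 from -0.32 to 0.13, Prpf4 from -0.079 to 0.090, the Prpf40b intron peak from -0.53 to 0.065, Sf3b1 from -0.15 to 0.13, Sf3b2 from -0.50 to 0.027, Srsf11 from -0.016 to 0.15 and Srsf3 from -0.031 to 0.19. At most member peaks the 95% interval did not lie within a 1.5-fold change, so smaller changes could not be bounded; the parts of depth and of variation between libraries in this were not separated.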
